A study of Rattus norvegicus with 15 samples.

Results

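The annexin family was followed in H9c2 cells, a myoblast line first grown from rat embryo hearts, over 14 days of culture with or without retinoic acid (RA). The 9 annexins, Anxa1, Anxa2, Anxa3, Anxa4, Anxa5, Anxa6, Anxa7, Anxa8 and Anxa11, were taken from the count table by gene symbol, and each had a single row among the 11574 genes. T0 cultures were harvested the day after seeding. T7-RA and T14-RA cultures were kept in low serum without RA for 7 and 14 days, and T7+RA and T14+RA cultures received in addition 1 µM all-trans RA every day. Each group held 3 cultures, which the study describes as biological replicates of 1 wild-type cell line. The titles name H9c2 for every sample, while the cell line labels count upward from H9c2 at T0 to H9c14 in T14+RA; all were taken as H9c2. Time in culture and low serum changed together from T0 on and cannot be told apart, and whether the cultures without RA were given the solvent of RA, DMSO, is not given in the sources used here.

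Annexins are soluble proteins that bind phospholipids of membranes, phosphatidylserine above all, when calcium rises. In muscle they are known for membrane repair: at a torn sarcolemma calcium enters, annexins gather at the wound with dysferlin and S100 proteins, and a cap forms that closes it. Several of them also act outside the cell, where annexin A1 dampens inflammation through formyl peptide receptors, annexin A2 binds plasminogen activators and annexin A5 covers exposed phosphatidylserine. RA acts through nuclear receptors that bind pairs of a short DNA half-site, and it is used here as an agent of muscle differentiation.

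The libraries held between 508397 and 1030820 counts, of which the 9 annexins together took between 0.296% and 0.415%. Levels below are CPM, counts scaled to a common library total with edgeR's TMM factors, and a comparison between genes uses CPM per kilobase of the transcript length given with the counts. Of the 7 myoblast and skeletal muscle markers 5 were analysed, which summed to 788 to 833 CPM in the T0 libraries, 969 to 1037 in T7-RA, 1119 to 1160 in T14-RA, 974 to 1039 in T7+RA, then 959 to 1077 in T14+RA. Their mean levels did not move one way. From T0 to T14-RA to T14+RA, Myog, the myogenin gene of differentiating myoblasts, stood at 48.7, 638 and 569 CPM, Des at 5.72, 40.3 and 39.5 CPM and Ckm at 2.56, 63.3 and 70.8 CPM. Cdh15, the cadherin of myoblasts, stood at 638, 324 and 264 CPM and Myod1 at 115, 80.2 and 65.0 CPM. Of the 9 cardiomyocyte markers Gata4 alone was analysed, at mean levels of 11.2 to 15.9 CPM, of the 5 leukocyte markers 0, of the 5 endothelial markers Tek, whose summed level was 0 to 6.29 CPM, and of the 5 epithelial markers Krt8, at 19.2 to 43.6 CPM. The fibroblast markers Col1a1, Thy1 and Dcn, 3 of 5 listed, summed to between 18440 and 37560 CPM, nearly all of it Col1a1. Dcn had 0 counts at T0, and its mean was 50.5 CPM in T14-RA and 120 CPM in T14+RA, while Thy1 was at 270 CPM and 180 CPM in the same groups. Listed genes that were not analysed, here and below, had no row under their symbol in the counts. The counts held only genes past the authors' filter on low genes. The part of cells with the markers above in the annexin levels was not tested. In bulk RNA fewer cells of a type and less RNA per cell cannot be told apart.

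Upstream sequences are shown for the 5 annexins whose levels passed the test with RA, because these stretches border the start sites of the genes that responded. The set of RefSeq promoters used here (GRCr8 build) gave a sequence for 8 of the 9 members, and none was found in it for Anxa6. The 250 bases before the annotated start were searched on both strands for the retinoid receptor half-site (AGGTCA or its variants AGTTCA or else GGGTCA or else GGTTCA), the TATA box (TATAAA), the GC box (GGGCGG), the CCAAT box (CCAAT) and the AP-1 site (TGACTCA). Capitals mark every match, and the sequences read 5′ to 3′ on the gene's strand. The Anxa1 window is chr1:227303733-227303982 (minus strand), that of Anxa3 chr14:13085598-13085847 (minus strand), of Anxa2 chr8:78986002-78986251 (plus strand), of Anxa5 chr2:121272697-121272946 (minus strand) and of Anxa8 chr16:9403137-9403386 (plus strand); the first 2 were higher with RA and the other 3 lower.
Anxa1: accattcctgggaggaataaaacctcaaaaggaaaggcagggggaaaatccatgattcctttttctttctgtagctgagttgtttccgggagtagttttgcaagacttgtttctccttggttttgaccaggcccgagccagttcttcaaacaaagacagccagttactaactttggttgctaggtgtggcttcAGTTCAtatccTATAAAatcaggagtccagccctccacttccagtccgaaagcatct
Anxa3: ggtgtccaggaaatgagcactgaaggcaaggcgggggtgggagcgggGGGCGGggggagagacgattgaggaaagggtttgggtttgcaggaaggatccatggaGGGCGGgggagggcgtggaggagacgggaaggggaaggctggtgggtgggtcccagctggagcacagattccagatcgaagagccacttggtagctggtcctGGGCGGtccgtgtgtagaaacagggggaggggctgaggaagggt
Anxa2: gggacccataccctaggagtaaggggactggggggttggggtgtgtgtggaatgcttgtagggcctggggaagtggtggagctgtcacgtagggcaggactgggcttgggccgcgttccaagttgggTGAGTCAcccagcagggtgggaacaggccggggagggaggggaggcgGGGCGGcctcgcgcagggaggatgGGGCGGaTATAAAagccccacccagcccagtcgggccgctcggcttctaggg
Anxa5: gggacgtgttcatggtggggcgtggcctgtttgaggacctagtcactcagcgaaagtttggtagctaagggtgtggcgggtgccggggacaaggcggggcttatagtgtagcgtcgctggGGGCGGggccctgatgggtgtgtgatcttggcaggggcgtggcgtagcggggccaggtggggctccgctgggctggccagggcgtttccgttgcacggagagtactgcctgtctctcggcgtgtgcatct
Anxa8: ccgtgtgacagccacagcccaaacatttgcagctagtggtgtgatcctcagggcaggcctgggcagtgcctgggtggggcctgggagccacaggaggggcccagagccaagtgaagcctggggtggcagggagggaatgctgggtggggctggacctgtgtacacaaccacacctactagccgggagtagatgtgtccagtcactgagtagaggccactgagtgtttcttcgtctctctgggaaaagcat

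The Anxa1 window held a half-site 57 bases and a TATA box 46 bases before the start, both on the gene's strand. Anxa2 also had a TATA box, 45 bases before the start, with GC boxes at 76 and 52 bases and an AP-1 match on the other strand at 123 bases. Anxa3 had 3 GC boxes and Anxa5 had 1, and none of the 5 motifs was in the letters of the Anxa8 window. A half-site was found in 3 of the 8 annexin promoters, in Anxa1, Anxa4 and Anxa7, and in 39.1% of all 33469 promoters of the same length. A TATA box was found in 2 of 8 and in 12.9% of all, a GC box in 5 of 8 and in 30.5%, a CCAAT box in 2 of 8 and in 34% and an AP-1 site in 1 of 8 and in 4.05%. Direct half-site repeats spaced by 1, 2 or 5 bases were in 0 of the 8 windows and in 0.194%, 0.137% and 0.326% of all promoters. These matches describe letters only, since binding was not measured. The motifs searched did not overlap each other in the windows shown.

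The question of the study was how much of the response over 14 days belongs to time and how much to RA, so an additive model gave a change for T7, for T14 and for RA in all 15 libraries, and a second model gave the RA change of each day. Genes were called at an adjusted p under 0.001 in edgeR's quasi-likelihood F test, with Benjamini-Hochberg adjustment over all genes. RA raised 2 of the 9 annexins, Anxa1 and Anxa3, and lowered 3, Anxa2, Anxa5 and Anxa8. The background was 3.33% of all genes called higher and 3.07% called lower, genes with few counts included. By summed counts the annexins other than Anxa8 ranked between 83 (Anxa1) and 2312.5 (Anxa7) of 11574 genes. The share called among genes of like counts was not taken. The other 4, Anxa4, Anxa6, Anxa7 and Anxa11, had adjusted p-values between 0.0815 and 0.616. The median RA change of the 9 annexins was −0.21 on the log2 scale, and that of all genes was −0.01.

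**Figure D1:**
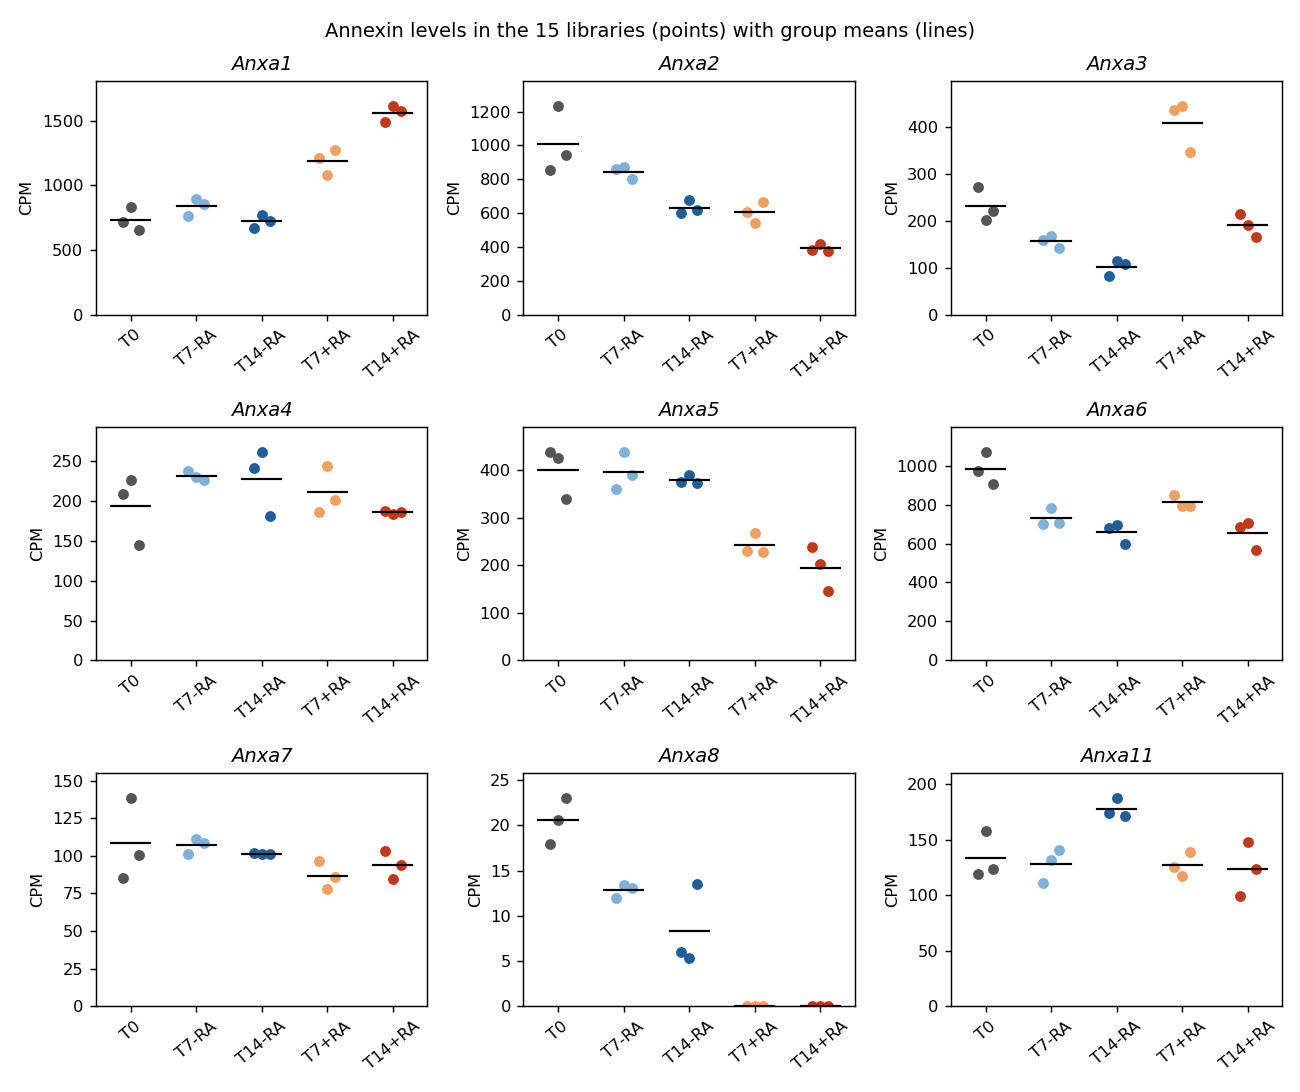
Level of each annexin in CPM (vertical axis, from 0) in the 15 libraries, with 3 points for the libraries of each group and a line at their mean. Anxa1 reaches 1487 to 1614 CPM in T14+RA, Anxa3 is highest in T7+RA at 346 to 444 CPM, and Anxa8 is at 0 in all 6 libraries with RA.

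Anxa1 (ENSRNOG00000017469) encodes the anti-inflammatory annexin A1, which also takes part in membrane repair, and lies at 1q51. It was measured at 715, 829 and 652 CPM in the T0 libraries. Without RA it stood at 766, 896 and 853 CPM on day 7 and at 671, 772 and 725 CPM on day 14. The 3 groups without RA overlapped throughout. With RA the levels were 1210, 1082 and 1273 CPM on day 7 and 1487, 1614 and 1579 CPM on day 14. All libraries of T7+RA were above those of the groups without RA, and all libraries of T14+RA were above T7+RA. The RA term was 0.81 (SE 0.0863, edgeR adjusted p = 1.79e-10), a 1.75-fold higher level. Its T7 and T14 terms, 0.05 and 0.15, had adjusted p-values of 0.815 and 0.363. Under limma on quantile-normalized log2 counts the RA term was 0.71 with an adjusted p of 0.00321, which is above the threshold.

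Anxa3 (ENSRNOG00000002045) at 14p22, whose protein is known as an inhibitor of phospholipase A2 and from the growth of blood vessels, was also higher with RA, but on a level that fell with time. At T0 it was at 272, 201 and 220 CPM. In T7-RA the libraries were at 160, 167 and 142 CPM, and in T14-RA at 81.7, 113 and 107 CPM. The order T0, T7-RA, T14-RA held without overlap. T7+RA stood at 436, 444 and 346 CPM, above every other library, and T14+RA at 214, 190 and 165 CPM, which overlapped with T0 and with T7-RA. The RA term was 1.21 (SE 0.105, edgeR adjusted p = 2.67e-14) and the T14 term −1.39 (SE 0.145, edgeR adjusted p = 8.48e-12). The 2 changes of Anxa3 had opposite signs, and the RA and T14 terms were called in all 15 fits that each left out 1 library and under limma on quantile-normalized counts.

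Of the 3 annexins lowered by RA, Anxa2 (ENSRNOG00000010362) at 8q24 encodes the partner of S100A10 that binds plasminogen activators at the cell surface and links actin to membranes. T0 libraries were at 855, 1233 and 943 CPM, with T0 replicate 2 apart from the others. T7-RA was at 861, 871 and 802 CPM, T14-RA at 601, 677 and 616 CPM, T7+RA at 609, 542 and 667 CPM and T14+RA at 384, 415 and 377 CPM. T14+RA was below every other library, and T7+RA overlapped with T14-RA. The RA term was −0.58 (SE 0.0822, edgeR adjusted p = 1.16e-07) and the T14 term −0.73 (SE 0.105, edgeR adjusted p = 8.25e-08), so both had the same sign. Limma on quantile-normalized counts gave adjusted p-values of 0.00137 for RA and 0.0185 for T14, both above the threshold. RefSeq lists 8 pseudogenes named after Anxa2, and reads shared with such copies make its absolute count uncertain.

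Anxa5 (ENSRNOG00000014453), the phosphatidylserine binder whose labelled protein is the common probe of dying cells, lies at 2q25. It was at 439, 426 and 340 CPM at T0, at 360, 438 and 391 CPM in T7-RA, followed by 375, 390 and 374 CPM in T14-RA. The 3 groups without RA overlapped. With RA it was at 231, 267 and 228 CPM on day 7 and at 238, 203 and 145 CPM on day 14, all below every library without RA. The RA term was −0.81 (SE 0.0934, edgeR adjusted p = 3.21e-10), a 1.76-fold lower level. The T14 term was −0.14 with an adjusted p of 0.395.

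Anxa8 (ENSRNOG00000060949) at 16p15, a low-level annexin first described as an anticoagulant protein of blood vessels, had 13, 11 and 11 counts at T0, 10, 10 and 9 in T7-RA, followed by 5, 3 and 8 in T14-RA. All 6 libraries with RA had 0 counts. In CPM these were 17.9, 20.6 and 23.1 at T0, 11.9, 13.4 and 13.1 in T7-RA, followed by 6.01, 5.31 and 13.6 in T14-RA. Against a limit of 3 counts over the 3 libraries of a group, which a count of 0 allows, Anxa8 was at least 8.64-fold lower with RA on day 7 (29 counts in T7-RA) and at least 5.97-fold lower on day 14 (16 counts in T14-RA). These limits cover the counting error of the groups with RA only and take the counts without RA as exact. The RA term was called (edgeR adjusted p = 4.69e-08), and its fitted size is not given because it depends on the prior count. Anxa8 was the least abundant annexin per kilobase in every group, and at this depth its T14 term, −1.30 (SE 0.484, edgeR adjusted p = 0.0272), did not pass the threshold.

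Anxa6 (ENSRNOG00000010668) at 10q22, the large annexin with a doubled core that builds the repair cap of injured muscle fibres, fell with time and had no called RA change. It was at 974, 1071 and 908 CPM at T0, at 703, 781 and 706 CPM in T7-RA, followed by 681, 696 and 598 CPM in T14-RA. With RA it was at 851, 795 and 794 CPM on day 7 and at 683, 707 and 569 CPM on day 14. T0 lay above every other library, T7+RA lay above T7-RA, and T14+RA overlapped with T14-RA. The T14 term was −0.62 (SE 0.0995, edgeR adjusted p = 7.7e-07) and the RA term 0.08 (SE 0.0761, edgeR adjusted p = 0.616). The T14 call was lost with limma on quantile-normalized counts (adjusted p = 0.0222).

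Anxa4, Anxa7 and Anxa11 were called in no comparison. Anxa4 (ENSRNOG00000018159) at 4q34, best known from epithelia, ranged from 145 to 262 CPM over the 15 libraries, with group means between 186 and 232 CPM. Anxa7 (ENSRNOG00000007136) at 15p16, the sorcin partner once named synexin, ranged from 77.9 to 139 CPM, with group means between 86.8 and 108 CPM, and RefSeq lists 4 pseudogenes under its name. For both genes every pair of neighbouring group means had overlapping ranges. Anxa11 (ENSRNOG00000010984) at 16p16, which tethers RNA granules to lysosomes, was at 174, 188 and 171 CPM in T14-RA, above the 12 other libraries at 99.4 to 158 CPM. Its RA change at day 14 was −0.55 (SE 0.148, edgeR adjusted p = 0.00593), which did not pass the threshold, and at day 7 it was −0.01.

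At T14, 0 of the 9 annexins were called higher and 3 lower, Anxa2, Anxa3 and Anxa6, while 8.47% of all genes were called higher and 8.85% lower. By edgeR at an unadjusted p under 0.05, 0 were higher and 4 lower, and both DESeq2 and limma-voom called 3 annexins. The share of all genes was taken for the edgeR calls by adjusted p only, so these counts have no background of their own. The median T14 change of the 9 was −0.14 and that of all genes 0.05. With library size as the only scaling the median of all genes moved to 0.15, and Anxa2, Anxa3 and Anxa6 were still called lower. At T7 edgeR called 0 of the 9, against 4.29% of all genes higher and 4.44% lower. At an unadjusted p under 0.05 there were 3, with Anxa4 higher and Anxa3 and Anxa6 lower, and DESeq2 called 1 and limma-voom 0. For these T7 counts too no share of all genes was taken.

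Without RA, T7-RA against T0 gave 1 call, the fall of Anxa6 by 0.43 (SE 0.0971, edgeR adjusted p = 4.65e-04). Of all genes 4.23% were called higher and 4.54% lower in that comparison. The call was lost with library size as the only scaling (adjusted p = 0.01) and with limma on quantile-normalized counts (0.251). It was also lost without T0 replicate 1 (0.00339), T0 replicate 2 (0.00401), T7-RA replicate 1 (0.0069), T7-RA replicate 3 (0.00617) or T14-RA replicate 1 (0.00104). In the second week, T14-RA against T7-RA, edgeR, DESeq2 and limma-voom each called 0 of the 9, while edgeR called 1.87% of all genes higher and 1.09% lower. At an unadjusted p under 0.05 there were 4, a threshold at which no share of all genes was taken. Anxa11 had a change of 0.48 (edgeR adjusted p = 0.0254). Anxa1, Anxa2 and Anxa3 had changes of −0.22, −0.42 and −0.66 (edgeR adjusted p of 0.2, 0.00358 and 0.00216).

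Anxa3 had a change of −0.58 in T7-RA against T0 (SE 0.139, edgeR adjusted p = 0.00114), close to the threshold. It was called lower without T0 replicate 2 (2.16e-04) or T14+RA replicate 3 (9.58e-04), with relative log expression factors (9.5e-04) and with edgeR's filter by group (9.91e-04). Without T0 replicate 2 both Anxa2 (4e-04) and Anxa3 (9.17e-04) were also called lower in T14-RA against T7-RA.

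The RA change was then taken on each day alone. On day 7 the second model called Anxa1 and Anxa3 higher and Anxa2, Anxa5 and Anxa8 lower, where 1.87% of all genes were called higher and 1.3% lower. On day 14 these 5 annexins were called again in the same directions, where 2.46% of all genes were called higher and 2.35% lower. The 2 days share no libraries, but 1 estimate of the spread. Anxa1 changed by 0.50 (SE 0.0951, edgeR adjusted p = 7.14e-05) on day 7 and by 1.11 (SE 0.0962, edgeR adjusted p = 7.13e-15) on day 14. Anxa3 changed by 1.39 (SE 0.128) and 0.96 (SE 0.153), Anxa2 by −0.48 (SE 0.104) and −0.69 (SE 0.11), and Anxa5 by −0.71 (SE 0.123) and −0.92 (SE 0.127). The difference between the 2 RA changes was tested directly at an adjusted p under 0.05, and 1 of the 9 annexins passed, Anxa1, with a difference of 0.61 (SE 0.135, edgeR adjusted p = 0.00777). Of all genes 0.285% passed with a higher and 0.458% with a lower change on day 14. The Anxa1 difference was above the threshold without T7-RA replicate 2 (adjusted p = 0.0557), T14-RA replicate 1 (0.0898) or T7+RA replicate 2 (0.0714). For Anxa3 the difference was −0.43 (SE 0.202, edgeR adjusted p = 0.555), and for Anxa2 and Anxa5 it was −0.20 and −0.22, with adjusted p-values of 0.794 and 0.827.

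Some of the calls of a single day were lost when 1 library was left out, although the changes kept their sign. Over the 15 such fits the day 7 changes were 0.44 to 0.57 for Anxa1, −0.55 to −0.41 for Anxa2 and −0.79 to −0.63 for Anxa5. The T14-RA libraries named below for Anxa2 are not part of the day 7 comparison. Anxa1 on day 7 was not called without T7-RA replicate 1 (adjusted p = 0.00557), T7+RA replicate 1 (0.00143) or T7+RA replicate 3 (0.0034). Anxa2 on day 7 was lost without any 1 of T7-RA replicates 1, 2 and 3 (0.00739, 0.00702 and 0.00158), T14-RA replicates 1, 2 and 3 (0.00131, 0.00109 and 0.0015) or T7+RA replicates 1 and 2 (0.00564 and 0.0243), and with DESeq2 (0.00216). Anxa5 on day 7 was lost without T7-RA replicate 2 (0.00101). Anxa8 on day 14 was lost without T14-RA replicate 3 (0.00732) or T14+RA replicate 1, 2 or 3 (0.00887, 0.00244 and 0.00184), with DESeq2 (0.00312) and in a fit of the 6 libraries of that day alone (0.00127), although its 3 libraries with RA held 0 counts. The RA and T14 terms of the additive model kept all their annexin calls in the 15 fits without 1 library. With limma on quantile-normalized counts the day 7 calls of Anxa1, Anxa2 and Anxa5 were lost (adjusted p = 0.219, 0.0725 and 0.0357), as were the day 14 calls of Anxa2, Anxa3 and Anxa5 (0.00898, 0.00982 and 0.00265) and the day difference of Anxa1 (0.302).

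**Figure D2:**
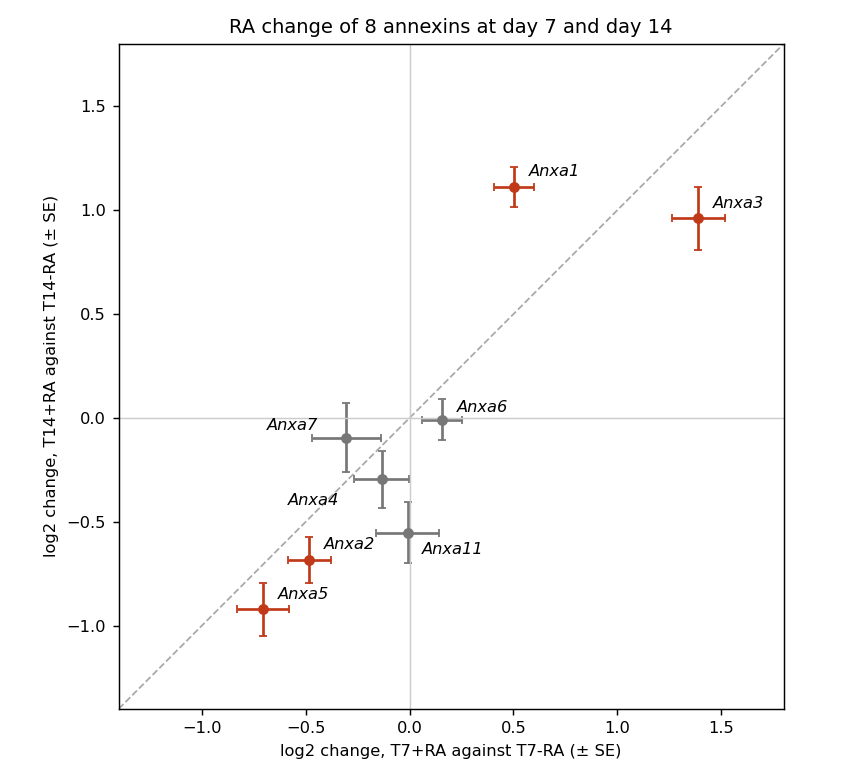
RA change on the log2 scale on day 7 (horizontal axis) and day 14 (vertical axis) for the 8 annexins with counts in every group, with bars of 1 SE; red points were called on both days and the dashed line marks equal changes. Anxa1 lies above the line at 0.50 and 1.11, Anxa3 lies right of it at 1.39 and 0.96, and Anxa2 and Anxa5 are in the lower left.

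The make-up of the family was then set per length. The 9 annexins at T0 summed to 3815 ± 439 CPM (SD, n = 3), while the sum was 3445 ± 173 in T7-RA, 3008 ± 171 in T14-RA, 3683 ± 98.8 in T7+RA, then 3394 ± 153 in T14+RA. Per kilobase of transcript, Anxa2 held the highest share at T0, 33.6% ± 3.18 (SD, n = 3) of the annexin CPM per kilobase, ahead of Anxa1 at 23.8% ± 0.517 and Anxa6 at 17.3% ± 0.797. On days 7 and 14 without RA the Anxa1 share was 29.3% each time, with SDs of 1.27 and 1.15. It was 40.4% ± 1.71 in T7+RA, then 54.7% ± 2.42 in T14+RA, where the Anxa2 share was 21.2% ± 1.36 and 14.12% ± 0.211. Anxa1 had the highest share in all 6 libraries with RA, but also in all 3 of T14-RA and in T7-RA replicates 2 (29.64% against 29.61% for Anxa2) and 3, while Anxa2 led in the T0 libraries and in T7-RA replicate 1. The lowest Anxa1 share in a library with RA was 38.6%, against at most 30.3% in T7-RA and 30.4% in T14-RA.

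**Figure D3:**
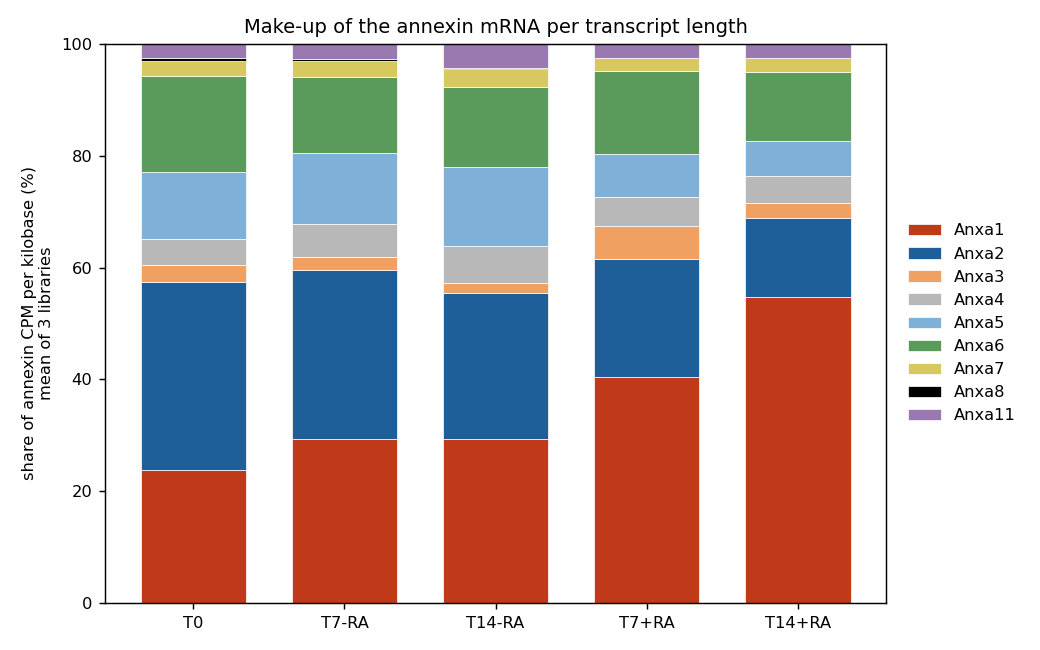
Share of each annexin in the summed annexin CPM per kilobase (vertical axis, percent, mean of 3 libraries) in the 5 groups. The Anxa1 part grows from 23.8% at T0 to 54.7% in T14+RA, and the Anxa2 part shrinks from 33.6% to 14.12%.

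The ratio of Anxa1 to Anxa5, both per kilobase, put the opposite RA changes of these genes in 1 value. It was 1.78, 2.12 and 2.09 at T0, 2.32, 2.23 and 2.38 in T7-RA, followed by 1.95, 2.16 and 2.11 in T14-RA. With RA it was 5.71, 4.42 and 6.09 on day 7 and 6.81, 8.68 and 11.9 on day 14. The libraries with RA did not overlap with those without it, and T14+RA did not overlap with T7+RA. The ratio was formed after the changes of both genes had been seen and is a description.

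S100 proteins are small dimers that join annexins in pairs, S100A11 with annexin A1 when calcium is bound and S100A10, which does not bind calcium itself, with annexin A2, and they were followed as partners. Of the 15 S100 genes listed 7 were analysed. RA raised 0 of them and lowered 2, S100a4 and S100a6, where 3.33% of all genes were called higher and 3.07% lower. The median RA change of the 7 was −0.58, the value of S100a3 (SE 0.666, edgeR adjusted p = 0.648), which had 30 counts over all libraries. S100a13 and S100a16 had RA terms of 0.44 and 0.46, not called, and the other S100 genes had negative ones. By edgeR S100a4, a metastasis-associated protein of motile cells, fell with RA by 2.11 on the log2 scale (SE 0.109, adjusted p = 1.48e-17) and was higher at T14 by 1.67 (SE 0.145, adjusted p = 1.18e-11). Its mean was 268 CPM at T0, 691 in T7-RA, 878 in T14-RA, 180 in T7+RA, then 183 in T14+RA. S100a6 fell with RA by 0.92 (SE 0.119, edgeR adjusted p = 2.04e-06).

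S100a10, the direct partner of annexin A2, had an RA term of −0.95 (SE 0.193, edgeR adjusted p = 0.00303), which did not pass the threshold, while DESeq2 and limma-voom gave adjusted p-values of 1.53e-07 and 1.1e-05. It also passed without T0 replicate 2 (7.48e-04), T7-RA replicate 3 (1.9e-04), T7+RA replicate 2 (9.59e-04) or T14+RA replicate 3 (3.07e-04). Its RA change was −0.57 on day 7 (SE 0.168, edgeR adjusted p = 0.0282), which was not called, and −1.46 on day 14 (SE 0.199, edgeR adjusted p = 1.19e-06), which was. The difference between the days was −0.89 (edgeR adjusted p = 0.14) and did not pass. Group means were 245 CPM at T0, 231 in T7-RA, 189 in T14-RA, 156 in T7+RA, then 67.3 in T14+RA. The ratio of Anxa2 to S100a10 per kilobase was 1.33, 1.31 and 1.56 in T14-RA and 2.33, 1.963 and 3.47 in T14+RA, which did not overlap. At T0 it was 1.555, 1.58 and 2.15, which overlapped with T14+RA. On day 7 it was 1.503, 1.36 and 1.77 without RA and 1.76, 1.32 and 1.82 with RA, which overlapped. S100a11, the partner of annexin A1, had an RA term of −0.14 (adjusted p = 0.367) and fell with time, with a T14 term of −1.39 (SE 0.12, edgeR adjusted p = 6.11e-14). The ratio of Anxa1 to S100a11 per kilobase was 0.198 ± 0.0336 (SD, n = 3) at T0, 0.481 ± 0.0323 in T14-RA and 1.23 ± 0.102 in T14+RA. Both ratios are descriptions, formed with the changes of these genes known.

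Among the membrane repair genes 19 of 23 were analysed. RA raised 3, Ehd4, Dysf and Smpd1, and lowered 1, Ehd2 (3.33% and 3.07% of all genes), with a median change of −0.01. DESeq2 and limma-voom each called 5, the added gene being Ahnak, a large scaffold protein that binds the annexin A2 complex, which is named after its values were seen. Its RA term was −0.85 (SE 0.156, edgeR adjusted p = 0.00206), with adjusted p-values of 3.1e-06 by DESeq2 and 4.34e-08 by limma-voom, and edgeR called it without T0 replicate 2 (4.31e-04), T7-RA replicate 2 (8.67e-04) or T14+RA replicate 2 (4.33e-06). Dysf, the dysferlin gene whose loss gives a muscular dystrophy, had an RA term of 0.68 (SE 0.0832, edgeR adjusted p = 2.58e-09). Its group means were 373 CPM at T0, 237 in T7-RA, 408 in T7+RA, 347 in T14-RA and 518 in T14+RA. The RA terms of Ehd4 and Ehd2, ATPases that shape membrane tubules, were 0.90 (SE 0.0847) and −0.49 (SE 0.0848), and that of Smpd1, the acid sphingomyelinase of lysosomes, was 0.51 (SE 0.0813). At T14 4 rose, Trim72, Bin1, Cav3 and Ehd4, and 3 fell, Myof, Capn2 and Ehd3, of which Capn2 and Ehd3 are named only because the count is small and after their values were seen. The Ehd3 call was lost without T0 replicate 1 (adjusted p = 0.00745). Of all genes 8.47% were called higher and 8.85% lower at T14. Bin1, which curves membranes into T-tubules, had a T14 term of 2.00 (SE 0.148), and Myof, the dysferlin relative of myoblast fusion, a term of −0.92 (SE 0.0999). Trim72, the muscle repair protein MG53, had 0 counts at T0, 23 in T7-RA, followed by 119 in T14-RA. Against the same limit of 3 counts it was at least 5.86-fold and at least 34.6-fold lower at T0. The limits of Trim72 cover the counting error at T0 only and take the other counts as exact. The rise of Cav3, caveolin of muscle, at T14 (0.91, SE 0.209, edgeR adjusted p = 3.63e-04) was lost with DESeq2 (0.00171) and without T0 replicate 1 (0.0301) or T14-RA replicates 1, 2 or 3 (0.001, 0.00206 and 0.00207). Pdcd6, the ALG-2 protein that binds annexins A7 and A11, had an RA term of 0.17 (adjusted p = 0.526) and a T14 term of 0.41 (adjusted p = 0.127).

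Phosphatidylserine is the lipid that annexins dock to, and 11 of 17 genes that synthesise or move it were analysed. RA raised 0 and lowered 1, Ano6, the scramblase that exposes phosphatidylserine, by edgeR with a change of −0.49 (SE 0.0965, adjusted p = 7.79e-05), where 3.33% of all genes were called higher and 3.07% lower. At T14 2 rose, Plscr4, a phospholipid scramblase, by 2.62 (SE 0.456) and Tmem30a, the flippase subunit, by 1.10 (SE 0.204), and Ptdss1, a phosphatidylserine synthase, fell, with a T14 term of −0.72 (SE 0.124). These were 2 and 1 of the 11 genes, where 8.47% of all genes were called higher and 8.85% lower. The median changes of the list were −0.10 for RA and −0.01 for T14.

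Of 14 listed ligands, receptors and other partners 9 were analysed. The formyl peptide receptors Fpr1, Fpr2 and Fpr3, through which annexin A1 acts, and Plg and Plau of the plasminogen system were not among them. RA raised 1 and lowered 0 of the 9, where 3.33% of all genes were called higher and 3.07% lower. Pla2g4a, the cytosolic phospholipase A2 that annexins A1 and A3 are known to inhibit, had an RA term of 1.09 (SE 0.177, edgeR adjusted p = 2.42e-06), with group means of 28.3 CPM in T7-RA, 59.6 in T7+RA, 30.2 in T14-RA and 66.3 in T14+RA. At T14 Plat and Trpm7 rose and Src fell, 2 and 1 of the 9, where 8.47% of all genes were called higher and 8.85% lower. Plat, the tissue plasminogen activator that binds annexin A2, had a T14 term of 1.66 (SE 0.211, edgeR adjusted p = 2.69e-09). Src, the kinase that phosphorylates annexin A2, had a term of −0.81 (SE 0.16, edgeR adjusted p = 4.23e-05), which was lost without T0 replicate 3 (0.00261). The term of Trpm7, a channel kinase that phosphorylates annexin A1, was 0.73 (SE 0.173, edgeR adjusted p = 5.44e-04), and it was lost with DESeq2 (0.00177), limma-voom (0.0024), without any T0 library (0.00156, 0.00326 and 0.0021 for replicates 1, 2 and 3), any T14-RA library (0.00206, 0.00195 and 0.00176) or T14+RA replicate 1 (0.00112). Sri, sorcin, the partner of annexin A7, had terms of −0.22 for RA and −0.86 for T14 (adjusted p = 0.586 and 0.00615).

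**Figure D4:**
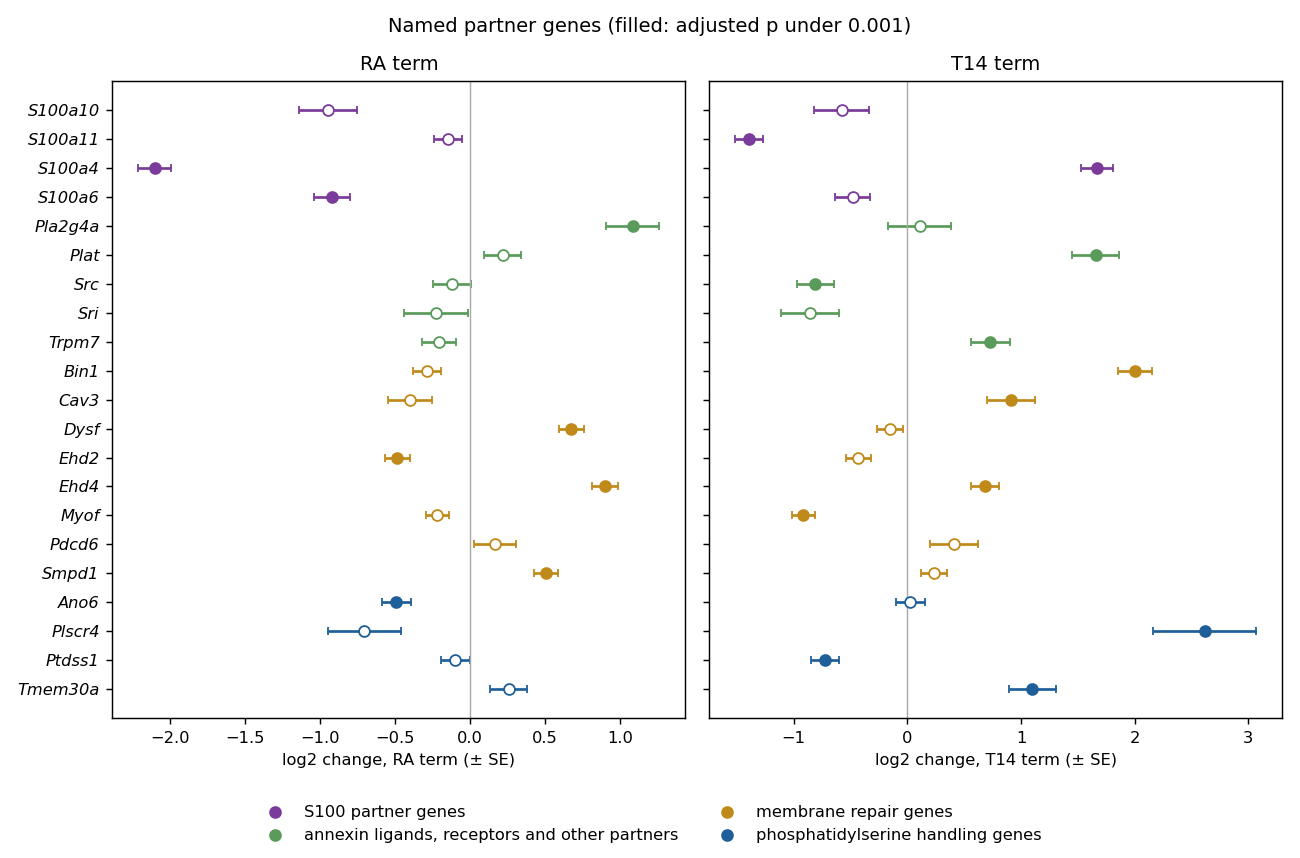
Change on the log2 scale with bars of 1 SE (horizontal axes) for the named partner genes with counts in every group, for the RA term (left) and the T14 term (right); colours stand for the lists and filled points passed an adjusted p of 0.001. S100a4 lies at −2.11 for RA and 1.67 for T14, and Pla2g4a at 1.09 for RA and 0.11 for T14.

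At T7 the same lists gave 1 S100 gene higher, S100a4 (1.45, SE 0.146), and 1 lower, S100a11 (−0.58, SE 0.118). Of the membrane repair genes 2 rose, Trim72 and Bin1, and 2 fell, Dysf and Capn2, a protease of the calpain family. The T7 terms were −0.59 (SE 0.113) for Dysf and 0.83 (SE 0.157) for Bin1. The mean of Dysf was 373 CPM at T0, 237 in T7-RA and 408 in T7+RA, so on day 7 it was below T0 only without RA. Plscr4 and Tmem30a rose among the phosphatidylserine genes, Plat and Trpm7 among the other partners, and 0 fell in either list. At T7 4.29% of all genes were called higher and 4.44% lower. With limma on quantile-normalized counts the RA calls of Dysf, Smpd1, Ehd2, Ano6 and Pla2g4a were lost (adjusted p = 0.00138 to 0.00518), and so were the T14 calls of Ehd4, Myof, Capn2, Ehd3, Cav3, Ptdss1, Src and Trpm7 (0.00141 to 0.0202). S100a6 had a T14 term of −0.48 that was called without T0 replicate 3 (4.38e-05), and Ehd2 one of −0.43 (adjusted p = 0.00113) that was called without T0 replicate 2 (8.82e-04), with edgeR's filter by group (7.54e-04) and at a mean of at least 10 counts (9.88e-04).

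Across the 15 libraries, each annexin was set beside the 3221 genes with a mean of at least 50 counts, by Pearson's r of log2 CPM with a prior count of 2. The 15 points share the 5 groups, so they are not independent and r is a description. For Anxa1 the most alike genes were Lipa, the lysosomal acid lipase (r = 0.953), Ldhb, the heart type lactate dehydrogenase subunit (0.948), and Cyp26b1, an enzyme that degrades RA (0.938). Anxa2 was most like Akr1b8 (0.963), Emp1 (0.961) and Gatad2a (0.941), and Anxa3 most like Luzp1 (0.961), F2r, the thrombin receptor (0.936), and Cmtm7 (0.928). For Anxa5 they were Ccn5 (0.925), Scrn1 (0.923) and Nqo1 (0.913), and for Anxa6 Dnajb1 (0.962), Rangap1 (0.943) and Actg1 (0.938). Anxa8 was most like Postn, the matrix protein periostin (0.965), Fst, follistatin (0.965), and Osr1 (0.96). With a prior count of 0.5 App replaced Cyp26b1 for Anxa1, AABR07021544.1 replaced Ccn5 for Anxa5, Adgrl2 replaced Osr1 for Anxa8, and the other annexins had the same 3 genes. Anxa4, Anxa7 and Anxa11 had no gene above 0.792, with Dars (0.741), Akr1b1 (0.739) and Acbd3 (0.717) for Anxa4, Sec22b (0.72), Nsun2 (0.707) and Get4 (0.703) for Anxa7, and Bzw2 (0.792), Serpinf1 (0.79) and H3f3b (0.763) for Anxa11.

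Within the family, r was 0.80 between Anxa2 and Anxa5, 0.83 between Anxa2 and Anxa8 and 0.86 between Anxa5 and Anxa8 over the 15 libraries, and Anxa1 had values of −0.75, −0.88 and −0.87 with these 3 genes. Anxa3 had r of 0.42 with Anxa1, 0.53 with Anxa6 and −0.03 with Anxa2.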

How the data were processed

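Stranded mRNA libraries of 15 H9c2 cultures were analysed, grouped by their sample labels. The authors trimmed the reads, mapped them with HISAT2 to the rat genome (build Rnor_6.0 in the submitters' processing notes), counted them per gene with featureCounts and deposited raw counts without normalization. The smallest sum of a gene was 21 counts, so their filter on low genes was already applied; the annotation release, tool versions and strand setting are not given in the sources used here. Without the strand setting, overlapping genes on opposite strands cannot be told apart.

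Counts were tested with edgeR 4.0.16 in R 4.3.3 (TMM, robust quasi-likelihood F test, Benjamini-Hochberg over 11574 genes). Models had T7, T14 and RA terms, or 5 group means. SE is the size of the log2 change divided by the square root of F. The length column deposited with the counts, read as the longest transcript, gave CPM per kilobase. The chi-square per gene between replicates of a group was 1.07 to 3.09, with the closest pair near the level of sampling noise alone. Whether a pair departed from that level was not tested. Alternatives used limma 3.58.1, DESeq2 1.42.0, other scalings, filters and each library left out. The statistics were tested on simulated data. Named genes were all annexins, called members of the lists with the largest changes (up to 4 for each list and term), S100a10, S100a11, S100a6, Pdcd6, Dysf, Trim72 and Sri, and the 3 genes most like each annexin. Members and lists were chosen with earlier results of these data known.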

Additional observations from a re-analysis of the deposited data

Results flagged for a closer look

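The RA change of Anxa1 differed between the days by a direct test of the difference. It was larger on day 14 than on day 7 by 0.61 on the log2 scale (SE 0.135, edgeR adjusted p = 0.00777, threshold 0.05), with levels of 1082 to 1273 CPM in T7+RA and 1487 to 1614 CPM in T14+RA. In the groups without RA it was at 766 to 896 CPM on day 7 and 671 to 772 CPM on day 14. The difference did not pass without T7-RA replicate 2 (adjusted p = 0.0557), T14-RA replicate 1 (0.0898) or T7+RA replicate 2 (0.0714), nor with limma on quantile-normalized counts (0.302).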

How the results depend on the processing

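The counts of annexins called for RA (4 or 5) and T14 (3) held under the other scalings, both filters, DESeq2, limma-voom and the replicate block; Anxa8 was not tested at a mean of at least 10 counts. Limma on quantile-normalized log2(count + 1) called fewer: 3 annexins for RA (5 in the main analysis), 1 for T14 (3), 2 each for RA on day 7 and on day 14 (5), 0 for T7-RA against T0 (1) and 0 for the day difference (1), and among the lists 1 membrane repair gene, 0 phosphatidylserine genes and 0 other partners for RA (4, 1 and 1), and 2 membrane repair genes and 1 other partner for T14 (7 and 3); the cause was not tested. For T7-RA against T0 relative log expression factors and edgeR's filter by group each called 2 annexins and library size alone 0, and DESeq2 called 1 at T7. A threshold of 0.05 gave 8 membrane repair, 3 phosphatidylserine and 2 other partner genes for RA. For T14 it gave 4 S100 genes and 5 other partners. It gave 2 annexins for T7, 2 for T7-RA against T0 and 3 for T14-RA against T7-RA. The share of all genes at 0.05 was not taken for these comparisons. A threshold of 0.001 left 0 for the day difference.

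With 1 library left out, annexins called ranged from 3 to 5 for RA on day 7, 0 to 2 for T7-RA against T0, 0 to 2 for T14-RA against T7-RA and 0 to 1 for the day difference, and other partners for T14 from 1 to 3 (1 without T0 replicate 3). Without T7-RA replicate 1, T7-RA replicate 2 or T7+RA replicate 1 there were 3 for RA on day 7. Same-numbered cultures had a mean correlation of deviations of 0.0843 (−0.0863 to 0.38) and differently numbered ones of −0.0421 (−0.315 to 0.199); not every same-numbered pair was over 0.1 and no label ties the numbers to a shared source, so they were not used as pairs. The replicate block gave 1 annexin at T7, 2 for T7-RA against T0 and 2 for T14-RA against T7-RA, and it called S100a10 (adjusted p = 6.07e-08; 0.00303 without the block) and Ahnak (5.19e-08; 0.00206) for RA and Ehd2 (8.55e-04; 0.00113) and Ahnak (9.68e-04; 0.0579) for T14.

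No called value changed sign. Uncalled values near 0 did. For T7-RA against T0, Anxa7 was −0.00465 with relative log expression factors, −0.00822 with the filter by group, −0.00703 with a mean of at least 10 counts and −0.0102 with DESeq2. With library size alone Anxa7 was 0.0616 for T7 and 0.0837 for T14, and Anxa5 and Anxa11 were 0.0808 and 0.0505 for T7-RA against T0. Limma-voom gave 0.00987 for Anxa7 at T14. On quantile-normalized counts Anxa2 was 0.0428 at T7, Anxa5 0.0169, Anxa7 0.00701 and Pla2g4a −0.0131 at T14, and Anxa5 0.0906 for T7-RA against T0 and 0.0122 for T14-RA against T7-RA. With the 6 libraries of the day alone Anxa11 had an RA change of 0.00388 on day 7. Leaving out 1 library gave ranges across 0 for T7 of Anxa1 (−0.0378 to 0.149), Anxa5 (−0.0762 to 0.102), Anxa7 (−0.208 to 0.179) and Anxa11 (−0.00863 to 0.214), for T14 of Anxa7 (−0.178 to 0.209) and Ano6 (−0.0533 to 0.115), for RA of Anxa11 on day 7 (−0.107 to 0.0756) and Anxa6 on day 14 (−0.0692 to 0.0779), for T7-RA against T0 of Anxa5 (−0.124 to 0.0532), Anxa7 (−0.162 to 0.227) and Anxa11 (−0.143 to 0.07998), and for T14-RA against T7-RA of Anxa4 (−0.122 to 0.106) and Anxa5 (−0.129 to 0.0165). The T7 calls of the partner lists and the single-day change of S100a10 were not recomputed under alternatives. Depth limits Anxa8 most, with at most 13 counts in a library.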
